A study of Rattus norvegicus with 8 samples.

Results

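Potassium channel genes, all those whose symbol begins with Kcn, were described in primary oligodendrocyte precursor cells deprived of oxygen and glucose. The members were taken by symbol alone, 1 row per symbol, which gave 93 of the 32662 genes in the table. RNA sequencing compared an OGD group (oxygen glucose deprivation, a culture model of ischaemia, for 6 h, 4 libraries) with a Control group kept under normal conditions for 6 h (4 libraries). The cells came from the cerebral cortex of Sprague Dawley rats aged 1 to 2 days. In both groups they were collected as the non-adherent cells of mixed glial cultures grown with 20% serum. They were then kept for 4 to 5 days with 2 mM glutamine, PDGF and FGF at 10 ng/ml, B27 at 2% and antibiotics at 1%. The labels do not say whether libraries of a group came from separate cultures, so the p-values reflect the spread between libraries alone, which may be technical.

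Potassium channels let potassium leave the cell along its gradient and so hold the membrane near its resting voltage and end electrical signals. Inward rectifiers and two-pore channels carry the resting current. Voltage-gated channels open on depolarization, and calcium-activated channels open when calcium rises in the cell. Auxiliary subunits form no pore but change how pore subunits open or reach the membrane. Oligodendrocyte precursors are known for large voltage-gated potassium currents, and the inward rectifier Kir4.1 becomes more prominent as the lineage matures. ATP-sensitive channels, built from an inward rectifier and a sulfonylurea receptor, are known for opening when cellular ATP falls.

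The 93 members were 15 inward rectifiers (Kcnj), 39 voltage-gated channels (Kcna, Kcnb, Kcnc, Kcnd, Kcnf, Kcng, Kcnh, Kcnq, Kcns and Kcnv), 14 two-pore channels (Kcnk), 5 calcium-activated channels (Kcnma and Kcnn), 3 related sodium- or pH-activated channels (Kcnt and Kcnu), 16 auxiliary subunits (Kcnab, Kcne, Kcnip and Kcnmb) and Kcnrg. Values were FPKM, the fragments of a gene scaled by its length and by the library's total. A total of 12 members were listed at 0 in every library, and 81 had a value above 0 in at least 1. The test was run on genes that reached 1 FPKM in 4 or more libraries, which 26 members passed and 67 did not. Of the 26, Kcnh4, Kcna6 and Kcnj14 reached 1 FPKM in libraries of 1 group alone, so that they had to differ to pass. Kcnj4, with the lowest mean inside the filter, averaged 1.09 FPKM over all 8 libraries, and Kcnk2, Kcnk5 and Kcnn2, just outside it, averaged 0.872, 0.868 and 0.865 FPKM. The 26 were also exactly the members with a mean of at least 1 FPKM.

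Precursor markers were abundant in every library, with Olig1, a transcription factor of the lineage, at 356.5 ± 28.0 FPKM in OGD and 794.5 ± 41.4 FPKM in Control libraries (SD, n = 4 each), and the precursor list held 6 of 9 tested genes that fell and 0 that rose. Microglial markers were present and moved with the groups: 10 of 11 tested genes fell, 0 rose, and their summed level was 64.9 to 119.1 FPKM in OGD and 200.6 to 328.6 FPKM in Control libraries. Of 8 myelin genes 5 fell and 1 rose, of 7 astrocyte genes 2 fell and 0 rose, and of 10 neuronal genes 3 fell and 2 rose. Of all tested genes, 22.7% were higher and 26.8% lower in OGD, and the falls in the astrocyte and neuronal lists were near that share. All 8 vascular markers found were under the filter, and Cldn5, Rgs5 and Dcn were at 0 throughout. The part that these markers play in the changes below was not tested, and in bulk samples fewer cells of a type and less RNA per cell cannot be told apart. Steps between low values gave relative depths of 0.816 to 1.18 in OGD and 1 to 1.11 in Control libraries.

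Of the 26 tested members, 4 were higher in OGD, 8 were lower and 14 did not pass (limma on log2(FPKM + 1), Benjamini-Hochberg adjusted p under 0.05 over 11149 genes). That is 46.2% called, against 49.5% of all tested genes. The share higher was 15.4%, against 22.7% of all tested genes, and the share lower was 30.8%, against 26.8%. Complete separation was seen for 10 members, with all OGD libraries higher for 3 and lower for 7, against 20.7% and 24.1% of all tested genes. Passing the filter forced this separation on Kcnh4 among those 3, and on Kcna6 and Kcnj14 among those 7. These members therefore carry no weight in that comparison, and the shares of all tested genes were not cleared of such cases. Without Kcnh4, Kcna6 and Kcnj14, which had to differ to be tested, 3 of 23 members were higher and 6 lower. The shares called and lower were near the background. The median log2 change of the 26 was -0.10, and that of all tested genes -0.04. RefSeq places uncharacterized loci over Kcnh4, Kcnq5 and Kcnk3 among the called members, which makes their values less certain, as the strand setting is not known here.

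**Figure D1:**
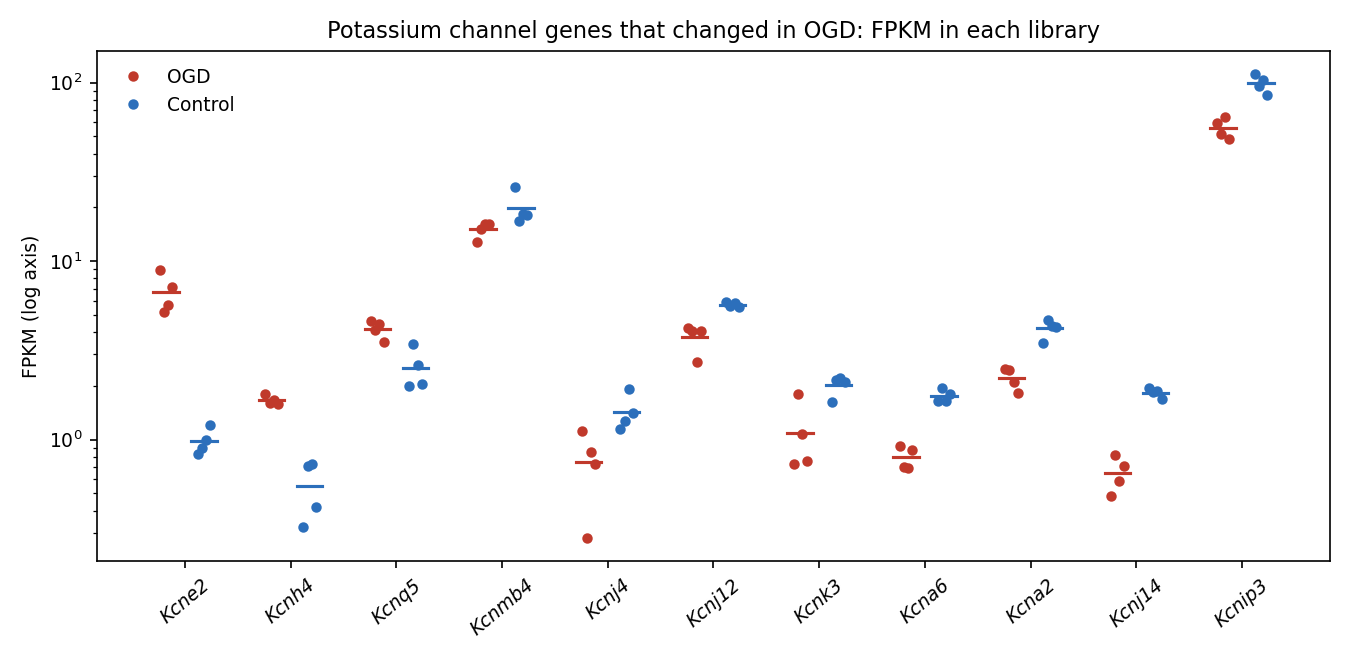
FPKM (log axis) of 11 of the potassium channel genes past the test, ordered by log2 change, with OGD libraries in red, Control libraries in blue, a point per library and a bar at each group's mean (n = 4 each). Kcne2 at the left sat at 5.20 to 8.94 FPKM in OGD and 0.830 to 1.21 FPKM in Control libraries, and Kcnip3 at the right at 48.1 to 63.8 FPKM in OGD and 85.6 to 112 FPKM in Control libraries.

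To show the sequence upstream of called members, the 250 bases before the annotated start are printed for both risen pore genes that matched a window (Kcnh4 and Kcnq5) and for the 2 members that fell by the most on the log2(FPKM + 1) scale (Kcnip3 and Kcnj14). The sequences are from RefSeq, build GRCr8, matched by symbol, and run 5′ to 3′ on the gene's strand, which is the minus strand for all 4. Capitals mark matches, on either strand, to ACGTG or GCGTG, the core letters of the hypoxia-inducible factor element, or to TGATGCAA, a form of the ATF4 element. The first is chr10:86188477-86188726, the second chr9:31891282-31891531, the third chr3:135195411-135195660 and the last chr1:105437259-105437508.
Kcnh4: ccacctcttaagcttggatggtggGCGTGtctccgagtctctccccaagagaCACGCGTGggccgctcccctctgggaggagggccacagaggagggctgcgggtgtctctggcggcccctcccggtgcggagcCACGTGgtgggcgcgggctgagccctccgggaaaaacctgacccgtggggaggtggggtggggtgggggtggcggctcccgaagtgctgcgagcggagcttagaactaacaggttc
Kcnq5: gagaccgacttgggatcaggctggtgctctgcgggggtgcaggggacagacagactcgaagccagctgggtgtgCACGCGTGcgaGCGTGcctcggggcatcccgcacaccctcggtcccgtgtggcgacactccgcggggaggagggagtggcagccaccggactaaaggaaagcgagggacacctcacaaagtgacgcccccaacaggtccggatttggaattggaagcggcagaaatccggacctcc
Kcnip3: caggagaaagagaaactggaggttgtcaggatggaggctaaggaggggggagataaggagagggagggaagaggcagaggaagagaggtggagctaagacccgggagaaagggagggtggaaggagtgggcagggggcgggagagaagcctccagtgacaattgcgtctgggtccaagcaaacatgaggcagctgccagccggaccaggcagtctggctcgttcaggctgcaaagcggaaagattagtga
Kcnj14: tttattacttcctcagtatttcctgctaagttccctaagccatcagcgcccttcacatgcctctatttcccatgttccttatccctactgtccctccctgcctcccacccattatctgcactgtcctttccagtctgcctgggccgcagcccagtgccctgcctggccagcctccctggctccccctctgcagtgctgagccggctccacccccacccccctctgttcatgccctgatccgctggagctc

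The Kcnh4 window held 2 matches to ACGTG, both in the palindrome CACGTG, which reads alike on either strand, and 3 to GCGTG, 2 of them overlapping in CACGCGTG. The Kcnq5 window held 3 matches to GCGTG, 2 of them overlapping in the same way, and the windows of Kcnip3 and Kcnj14 held none of the 3 motifs. Windows were matched for 62 of the 93 members, of which 27 (43.5%) held ACGTG or GCGTG, against 36.7% of 33469 windows of all genes. By motif, ACGTG was in 9.68% of the members' windows and 16.6% of all, GCGTG in 38.7% and 25.9%, and TGATGCAA in 3.23% and 0.693%. The members' TGATGCAA matches were in 2 windows, those of Kcnc2 and Kcnt2, both under the filter. Of the 12 called members, both of the 2 higher in OGD with a window held a core match, as did 1 of the 6 lower in OGD with a window. Among the 8 tested members with a window that did not pass, 3 (37.5%) held a core match. The windows of Kcnh4 and Kcnq5 held 68.8% and 65.2% G or C, and those of Kcnip3 and Kcnj14 58.4% and 59.6%. The part of base composition in the matches was not tested, and the called members with a window are few. These matches describe letters, not binding sites.

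The inward rectifiers were carried by Kcnj10, and 3 genes of the Kir2 group of strong rectifiers were lower in OGD, one of them by a call that depends on the processing. The 5 that were tested split into 0 higher, 3 lower (Kcnj14, Kcnj12 and Kcnj4) and 2 not past the test (Kcnj10 and Kcnj11). Of all tested genes, 22.7% were higher and 26.8% lower in OGD. Kcnj14 had to differ to be tested, and 5 members are too few to set a family apart from these shares. Kcnj10 (ENSRNOG00000007705), which encodes Kir4.1, had 27.2, 27.5, 24.9 and 18.8 FPKM in OGD replicates 1 to 4 and 23.9, 28.9, 26.5 and 24.8 FPKM in Control replicates 1 to 4. The groups overlapped, and its log2 difference stood at -0.09 (SE 0.11; limma, adjusted p = 0.542).

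Kcnj14 (ENSRNOG00000021056), which encodes Kir2.4, had 0.482, 0.823, 0.588 and 0.712 FPKM in OGD libraries and 1.96, 1.84, 1.86 and 1.68 FPKM in Control libraries. All 4 OGD libraries were the lower, and the log2 difference stood at -0.78 (SE 0.12; limma, adjusted p = 4.02e-04). As it reached 1 FPKM in Control libraries alone, the value without the filter is given too, an adjusted p of 4.05e-04 by limma. Kcnj12 (ENSRNOG00000002303), which encodes Kir2.2, had 4.19, 4.08, 2.71 and 4.04 FPKM in OGD libraries and 5.88, 5.60, 5.79 and 5.51 FPKM in Control libraries. These groups did not overlap either, and the log2 difference stood at -0.51 (SE 0.12; limma, adjusted p = 0.00480). The level of Kcnj4 (ENSRNOG00000013869), which encodes Kir2.3, was 1.11, 0.282, 0.856 and 0.732 FPKM in OGD libraries and 1.15, 1.28, 1.92 and 1.40 FPKM in Control libraries. The highest OGD library was just under the lowest Control library, and the log2 difference stood at -0.50 (SE 0.17; limma, adjusted p = 0.0352). That call was lost without Control replicate 2 (adjusted p = 0.0529), Control replicate 3 (0.104), Control replicate 4 (0.0648), OGD replicate 2 (0.0859) or OGD replicate 4 (0.0565). It was lost too with quantile normalization (0.107), a filter on a mean of at least 1 FPKM (0.0516), a pseudocount of 0.1 (0.0501) and the joint omission of Control replicate 1 and OGD replicate 4 (0.0565), 9 of 17 alternatives in all, with a range over 17 alternatives of 0.0220 to 0.107. Kcnj2, which encodes Kir2.1, was under the filter at 0.166 to 0.348 FPKM in OGD and 0.170 to 0.378 FPKM in Control libraries, and its groups overlapped (two-sided exact permutation test, p = 0.314, adjusted p = 0.823).

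Kcnj11, the Kir6.2 pore of ATP-sensitive channels, had 1.02, 1.47, 1.18 and 1.27 FPKM in OGD libraries and 1.10, 1.60, 1.40 and 1.60 FPKM in Control libraries, with overlapping groups and a log2 difference of -0.11 (SE 0.13; limma, adjusted p = 0.487). Abcc8, the sulfonylurea receptor that pairs with it, averaged 1.68 FPKM in OGD and 1.18 FPKM in Control libraries (limma, adjusted p = 0.148). The other ATP-sensitive pore, Kcnj8, was listed above 0 in only 1 library of each group. Summed over all 15 members, inward rectifiers held 32.4 ± 4.19 FPKM in OGD and 38.4 ± 2.08 FPKM in Control libraries (SD, n = 4 each). Without Kcnj10 the sum was 7.78 ± 0.945 FPKM in OGD and 12.3 ± 0.278 FPKM in Control libraries, and these did not overlap. The median log2 change of the 5 tested members was -0.50, and that of all 15 members fitted without the filter was -0.09.

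**Figure D2:**
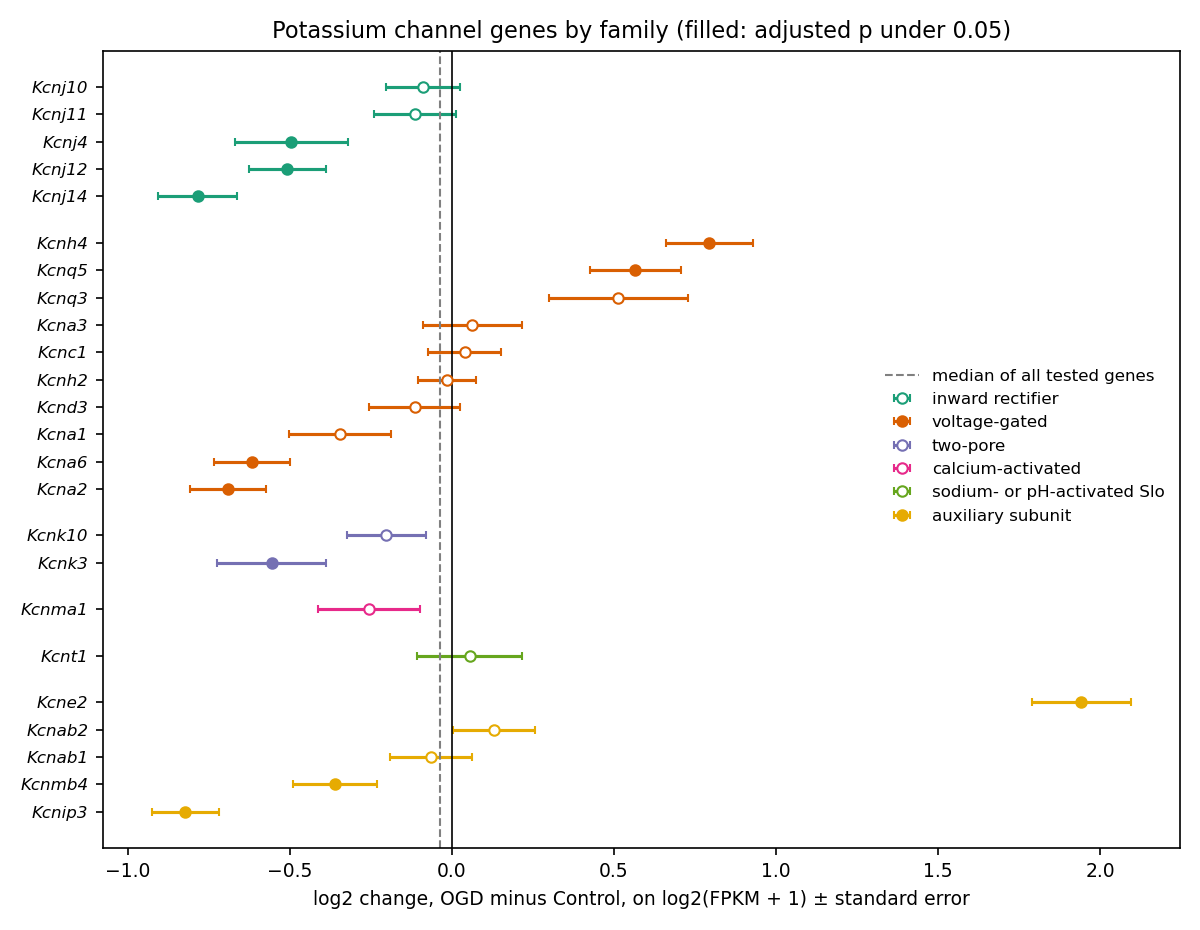
Log2 change, OGD minus Control, on the log2(FPKM + 1) scale with its standard error for 24 of the tested members, grouped and coloured by family; filled points passed the test and the dashed line is the median of all tested genes (-0.04). Inward rectifier and two-pore points lie at or below 0, and voltage-gated points lie on both sides.

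Voltage-gated channels moved in both directions, as did tested genes at large (22.7% higher and 26.8% lower in OGD). Among the 12 tested, 3 rose (Kcnh4 and Kcnq5 among them), 2 fell (Kcna2 and Kcna6) and 7 missed the threshold, with a median log2 change of 0.05. Both that fell belong to the Kv1 group of delayed rectifiers. Kcna2 (ENSRNOG00000018285), which encodes Kv1.2, had 2.50, 2.45, 2.10 and 1.83 FPKM in OGD libraries and 3.46, 4.70, 4.34 and 4.30 FPKM in Control libraries. Every OGD library was the lower, and the log2 difference stood at -0.69 (SE 0.12; limma, adjusted p = 7.39e-04). Kcna6 (ENSRNOG00000052486), which encodes Kv1.6, had 0.924, 0.701, 0.693 and 0.877 FPKM in OGD libraries and 1.65, 1.94, 1.64 and 1.80 FPKM in Control libraries. Its groups did not overlap, and the log2 difference stood at -0.62 (SE 0.12; limma, adjusted p = 0.00138). It reached 1 FPKM in Control libraries alone, and with no filter its adjusted p was 0.00106 (limma).

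The other Kv1 genes did not share this pattern past the test. Kcna1 averaged 1.11 ± 0.393 FPKM in OGD and 1.66 ± 0.352 FPKM in Control libraries (SD, n = 4 each; limma, adjusted p = 0.0924). Kcna3, which encodes Kv1.3, a channel linked to proliferation of rodent precursor cells and also found in microglia, averaged 5.97 ± 0.954 FPKM in OGD and 5.73 ± 1.33 FPKM in Control libraries (limma, adjusted p = 0.759). Its log2 change of 0.06, with a standard error of 0.15, stood beside the lower microglial sum in the same OGD libraries. Kcna5, Kcna7 and Kcna10 each averaged under 0.1 FPKM.

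Kcnh4 (ENSRNOG00000018790), an Elk channel of the ether-à-go-go family, had 1.80, 1.60, 1.68 and 1.59 FPKM in OGD libraries and 0.326, 0.711, 0.735 and 0.421 FPKM in Control libraries. All OGD libraries were above all Control libraries, at a log2 difference of 0.79 (SE 0.13; limma, adjusted p = 6.99e-04). It reached 1 FPKM in OGD libraries alone, and with no filter its adjusted p was 8.06e-04 (limma). Kcnq5 (ENSRNOG00000013781), a Kv7 channel of the slow M-current, had 4.63, 4.09, 4.43 and 3.54 FPKM in OGD libraries and 2.00, 3.43, 2.63 and 2.06 FPKM in Control libraries. The lowest OGD library stood just over the highest Control library, and the log2 difference stood at 0.57 (SE 0.14; limma, adjusted p = 0.00661). Kcnq3, another M-current subunit, averaged 2.23 ± 1.17 FPKM in OGD and 1.17 ± 0.192 FPKM in Control libraries (SD, n = 4 each), with a change that missed the threshold (limma, adjusted p = 0.0671).

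The voltage-gated gene with the highest level did not pass. Kcnd3, which encodes the transient Kv4.3 channel, averaged 11.6 ± 2.55 FPKM in OGD and 12.5 ± 1.56 FPKM in Control libraries (SD, n = 4 each; limma, adjusted p = 0.524). Summed over 39 members, voltage-gated channels held 57.1 ± 7.10 FPKM in OGD and 54.9 ± 6.40 FPKM in Control libraries.

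Two-pore channels, which carry leak current, were led by Kcnk10, and Kcnk3 was lower in OGD. Kcnk3 was the 1 that fell of the 2 tested, and 0 rose, too few to set against the 26.8% lower of all tested genes. Kcnk3 (ENSRNOG00000009790), the acid-sensitive TASK-1, had 0.727, 1.81, 1.07 and 0.764 FPKM in OGD libraries and 1.63, 2.15, 2.22 and 2.11 FPKM in Control libraries. OGD replicate 2 overlapped the Control range, and the log2 difference stood at -0.56 (SE 0.17; limma, adjusted p = 0.0173). Without OGD replicate 1 the adjusted p was 0.0503, within a range over 17 alternatives of 0.00257 to 0.0503. Kcnk10 (ENSRNOG00000003813), the stretch- and lipid-sensitive TREK-2, had 9.67, 8.94, 8.12 and 7.03 FPKM in OGD libraries and 7.79, 11.0, 10.9 and 9.78 FPKM in Control libraries. Its groups overlapped through Control replicate 1, and the log2 difference stood at -0.20 (SE 0.12; limma, adjusted p = 0.195, and 0.0466 without Control replicate 1). Kcnk13, the THIK-1 channel known from microglia, was at 0.0826 to 0.336 FPKM in OGD and 0.0743 to 0.276 FPKM in Control libraries. The 14 two-pore genes summed to 12.7 ± 1.15 FPKM in OGD and 15.1 ± 1.62 FPKM in Control libraries (SD, n = 4 each).

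Calcium-activated channels were represented above the filter by Kcnma1 alone. Kcnma1 (ENSRNOG00000005985), the pore of the large-conductance BK channel, had 6.07, 6.70, 4.07 and 3.94 FPKM in OGD libraries and 5.18, 7.27, 6.46 and 6.27 FPKM in Control libraries. OGD replicates 3 and 4 were below all Control libraries and the other OGD libraries within their range, and the log2 difference stood at -0.26 (SE 0.16; limma, adjusted p = 0.200). Kcnn2, a small-conductance channel under the filter, had 0.782, 0.667, 0.715 and 0.770 FPKM in OGD libraries and 1.18, 1.23, 0.980 and 0.596 FPKM in Control libraries (two-sided exact permutation test, p = 0.143, and adjusted p = 0.491 over the 55 members under the filter that had a value). The 5 members summed to 7.46 ± 1.80 FPKM in OGD and 8.56 ± 0.859 FPKM in Control libraries. Of the sodium- or pH-activated relatives, Kcnt1 averaged 4.86 ± 1.52 FPKM in OGD and 4.52 ± 0.441 FPKM in Control libraries (SD, n = 4 each; limma, adjusted p = 0.805). Kcnt2 was at 0.116 to 0.253 FPKM in OGD and 0 to 0.176 FPKM in Control libraries (exact permutation p = 0.314, adjusted p = 0.823), and Kcnu1 was at 0 in every library.

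**Figure D3:**
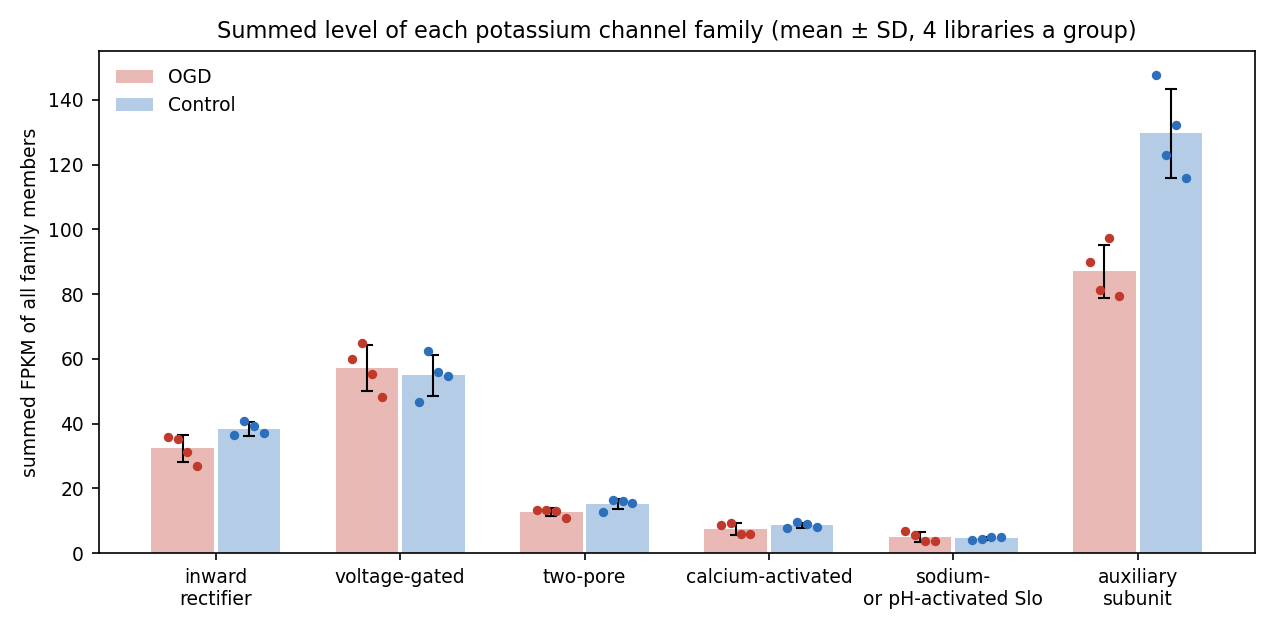
Summed FPKM of all members of each family, with OGD in red and Control in blue, bars at the mean, whiskers at 1 SD and a point per library (n = 4 each). The groups do not overlap for the auxiliary subunits, at 79.5 to 97.3 FPKM in OGD and 115.8 to 147.8 FPKM in Control libraries, nor, narrowly, for the inward rectifiers, and they overlap for the other 4 families.

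Among the auxiliary subunits stood both the largest rise and the largest fall of the 26 tested members on the log2(FPKM + 1) scale. With a pseudocount of 0.1 the change of Kcnip3 was -0.83 and that of Kcnj14 -1.39, so that the order of the falls depends on this choice. Of 5 tested subunits 1 rose (Kcne2), 2 fell (Kcnip3 and Kcnmb4) and 2 did not pass (Kcnab1 and Kcnab2). The shares of all tested genes were 22.7% higher and 26.8% lower in OGD. Kcne2 (ENSRNOG00000029811), a single-pass membrane subunit known to join several voltage-gated and pacemaker pores, had 8.94, 5.20, 5.65 and 7.13 FPKM in OGD libraries and 0.830, 0.892, 0.997 and 1.21 FPKM in Control libraries. The groups were far apart, and the ratio of the mean levels was 6.85. The log2 difference stood at 1.94 (SE 0.15; limma, adjusted p = 4.65e-06), and Kcne2 was the 1 called member that changed by at least 2-fold on this scale. By the ratio of mean levels, OGD over Control, Kcnh4 (3.04), Kcnj14 (0.355) and Kcna6 (0.454) also changed by over 2-fold. The voltage-gated pore Kcnq1, one of its partners, was at 0 to 0.0617 FPKM in OGD and 0 to 0.0974 FPKM in Control libraries, and Kcnh2, another, averaged 3.35 ± 0.0955 FPKM in OGD and 3.39 ± 0.124 FPKM in Control libraries (limma, adjusted p = 0.904).

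Kcnip3 (ENSRNOG00000014152) was the most abundant member in every library. It encodes a calcium-binding protein, also called calsenilin or DREAM, that joins Kv4 channels, binds presenilins and can repress transcription. Its level was 59.4, 51.7, 63.8 and 48.1 FPKM in OGD libraries and 112, 96.1, 103 and 85.6 FPKM in Control libraries. All OGD libraries lay below all Control libraries, at a log2 difference of -0.82 (SE 0.10; limma, adjusted p = 1.02e-04). It made up 24.6% to 30.8% of the summed FPKM of all 93 members in OGD and 36.2% to 43.6% in Control libraries. The auxiliary sum was 87.1 ± 8.24 FPKM in OGD and 129.7 ± 13.8 FPKM in Control libraries (SD, n = 4 each), and without Kcnip3 it was 31.3 ± 1.63 FPKM in OGD and 30.5 ± 4.02 FPKM in Control libraries. The pore genes together summed to 114.7 ± 15.1 FPKM in OGD and 121.6 ± 10.9 FPKM in Control libraries.

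Kcnmb4 (ENSRNOG00000054458), the brain form of the BK beta subunit, had 12.8, 15.0, 16.2 and 16.2 FPKM in OGD libraries and 26.0, 16.7, 18.4 and 18.1 FPKM in Control libraries. Control replicate 1 stood above the rest, and the highest OGD library was just under the lowest Control library. The log2 difference stood at -0.36 (SE 0.13; limma, adjusted p = 0.0389), and the adjusted p was 0.0741 without Control replicate 1, 0.0547 without Control replicate 3, 0.0508 without Control replicate 4, 0.107 without OGD replicate 1 and 0.0654 without OGD replicate 2. It was 0.0764 with no filter, 0.0522 without the trend and 0.0597 with the replicate block. Over 18 alternatives it ranged from 0.0250 to 0.107. Kcnab2, the main cytoplasmic beta subunit of Kv1 channels here, averaged 6.30 ± 1.08 FPKM in OGD and 5.65 ± 0.793 FPKM in Control libraries (SD, n = 4 each; limma, adjusted p = 0.415). Kcnrg, a protein related to the assembly domain of voltage-gated channels, had 1.67, 0.272, 0.388 and 0.943 FPKM in OGD libraries and 0.886, 0.428, 0.798 and 0.416 FPKM in Control libraries, with overlapping groups (exact permutation p = 0.771, adjusted p = 1 over 55 members).

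Of the 67 members under the filter, 55 had a value. An exact permutation test gave its smallest possible p, 0.0286, for 8 of them, and none passed adjustment over the 55 (smallest adjusted p = 0.196). Adjustment could be passed only if most of the 55 reached that smallest p, so this outcome says little about single members. In the limma fit with no filter, which covered the 81 members with a value above 0, 6 were higher and 12 lower in OGD. Both are smaller shares than those of all 16909 genes, 14.5% higher and 18.2% lower. That fit added 8 members from under the filter, and these are named here after their values were seen. Kcna4, Kcnip4 and Kcnj3 were higher, and Kcnab3, Kcnc4, Kcng1, Kcnj5 and Kcnj9 were lower. It also lost 2 of the 12 called with the filter, Kcnmb4 among them.

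Fragment numbers could be read for 26 members, because their values, scaled by relative depth, stood within 0.02 of whole multiples of a common step in all libraries above 0. The largest step that served was taken as 1 fragment, so these numbers could be too low by a whole factor. Kcnj14 rested on 8, 12, 12 and 15 fragments in OGD libraries and 35, 34, 37 and 32 fragments in Control libraries. Kcnj4 rested on 18, 4, 17 and 15 fragments in OGD libraries and 20, 23, 37 and 26 fragments in Control libraries. The numbers of Kcnj14 were well apart between groups and those of Kcnj4 close. Of the pore subunits of G-protein-gated channels, Kcnj3 had 13 fragments over the 4 OGD libraries and 3 over the 4 Control libraries, and Kcnj5 had 3 fragments in OGD and 22 in Control. The Kv1 gene Kcna4 had 53 fragments in OGD and 21 in Control, while Kcna1 had 47 in OGD and 76 in Control. Kcnab3, a Kv beta subunit, had 26 fragments in OGD and 62 in Control, and Kcnc4, a Kv3 channel, had 19 in OGD and 50 in Control. Kcnk13 had 11 in OGD and 10 in Control, a depth at which only large differences could be seen.

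**Figure D4:**
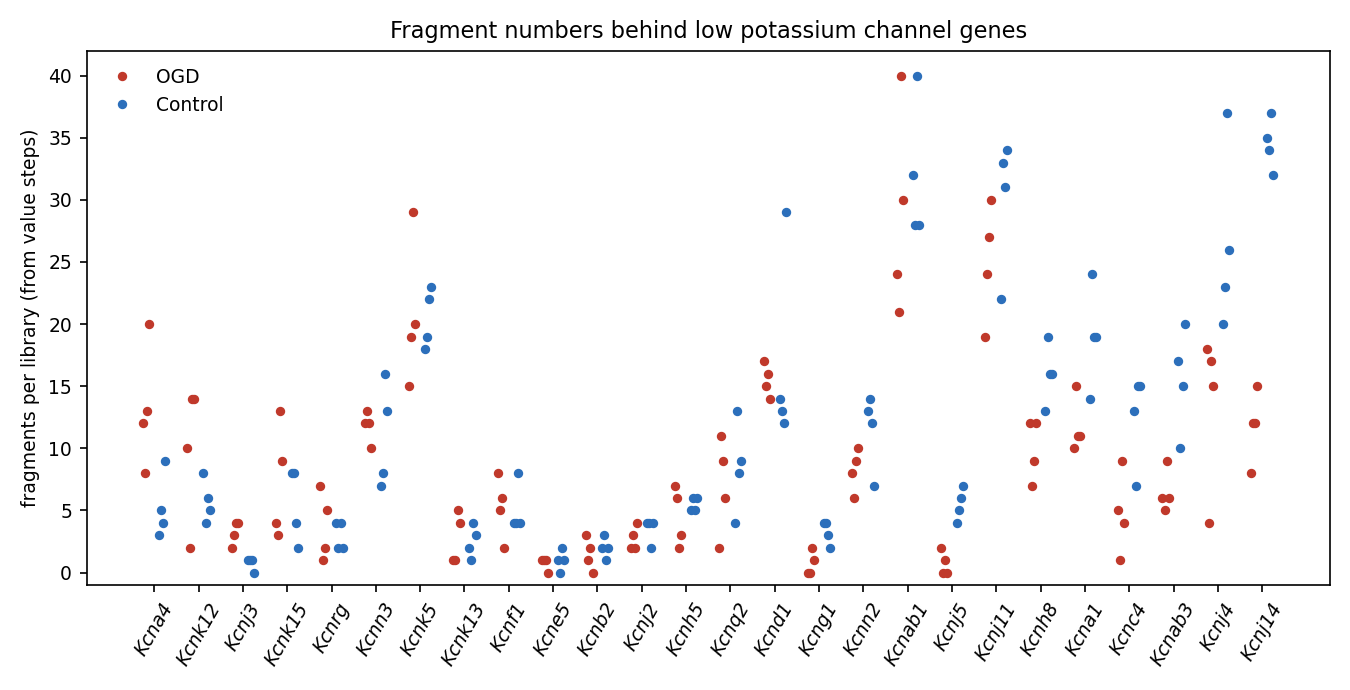
Fragments per library read from the steps between values for 26 low potassium channel genes, ordered by the difference of the group totals, with OGD in red and Control in blue (a point per library, n = 4 each, not scaled for depth). Kcnj14 at the right lies at 8 to 15 fragments in OGD and 32 to 37 in Control libraries, while Kcnk5 lies at 15 to 29 in OGD and 18 to 23 in Control.

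Genes outside the Kcn symbols that move potassium or partner these channels were read from a list of 38, of which 20 were tested. In that list 8 rose, 4 fell (Hcn2, Atp1b2 and Fxyd6 among them) and 8 did not pass, with a median log2 change of 0.04. These are 40% higher and 20% lower in OGD, against 22.7% and 26.8% of all tested genes. Both Kv4 partners of this list, Dpp6 and Dpp10, rose, while the Kv4 gene Kcnd3 did not pass and Kcnip3, which also joins Kv4 channels, fell. Dpp6 (ENSRNOG00000030547) had 55.8, 56.8, 59.2 and 49.1 FPKM in OGD libraries and 39.9, 45.2, 41.6 and 36.3 FPKM in Control libraries, without overlap (log2 change 0.43, standard error 0.08, limma adjusted p = 0.00139). Dpp10 (ENSRNOG00000002595) had 22.8, 22.2, 23.2 and 19.5 FPKM in OGD libraries and 14.0, 16.8, 15.5 and 14.4 FPKM in Control libraries, also without overlap (log2 change 0.50, limma adjusted p = 5.25e-04). Hcn2, a pacemaker channel that Kcne2 can join, averaged 5.86 ± 0.394 FPKM in OGD and 9.64 ± 0.500 FPKM in Control libraries (limma, adjusted p = 1.20e-04). Of the sodium pump, which returns potassium to the cell, the beta subunit gene Atp1b2 averaged 48.5 ± 2.35 FPKM in OGD and 59.5 ± 2.25 FPKM in Control libraries (limma, adjusted p = 0.00233). Fxyd6, a small regulator of the pump, averaged 73.5 ± 9.81 FPKM in OGD and 98.7 ± 7.40 FPKM in Control libraries (limma, adjusted p = 0.00353).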

How the data were processed

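The authors deposited 1 table of FPKM values, a column per library for 8 libraries, per the file headers. Libraries were made with a strand-specific kit, per the labels' protocols. Trimmomatic, FastQC and build rn6 (Rnor_6.0) are named per the submitters' processing notes. For the aligner, FPKM program, annotation and strand setting, the answer is not given in the sources used here. Counts are not held by such values, so total depth is unknown; 1200 to 1502 low genes gave relative depth. The 11149 genes that reached 1 FPKM in 4 or more libraries were tested on log2(FPKM + 1) with limma 3.58.1 in R 4.3.3. The fit was trended with group only, and p-values were Benjamini-Hochberg adjusted. This procedure was checked on simulated data with independent normal noise. Changes were put there only into genes with a Control mean over 2 on the log2(FPKM + 1) scale. Recovery was therefore not checked at the level of called members such as Kcnh4, Kcna6 and Kcnj14. Fold changes of low genes are understated by the pseudocount of 1. Kcnn2 stood on 2 rows, of which the higher was used. Named were all members past the test, the 2 highest of each family, and, from the list outside Kcn, the 4 with the smallest p and the 2 highest; further members were named after their values were seen. Members and lists were chosen with earlier results of these data known. Alternatives were 3 scalings, 3 filters, a pseudocount of 0.1, no trend, a replicate block and each library left out. The files give no gene positions; promoter windows come from another build. Some genes selected by the naming rule are not reported here.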

Additional observations from a re-analysis of the deposited data

Results flagged for a closer look

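Among 58 groups of 4 libraries checked, 3 had a library set well apart from the rest of its group, and about 2.9 would by chance. Kcnj12 in OGD replicate 3, at 2.71 FPKM, was below the other OGD libraries. The summed two-pore channels in OGD replicate 4, at 11.0 FPKM, were below those of the other OGD libraries. The sum of all 93 members in Control replicate 4, at 236.7 FPKM, was below the other Control libraries.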

How the results depend on the processing

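Of 18 alternatives (17 set at the start, and the joint omission of Control replicate 1 and OGD replicate 4 added after seeing the data), only the filter of 5 FPKM moved the counts of members called by over 1.5 times, to 2 higher and 3 lower in OGD. Fewer members are tested there. The median log2 change of inward rectifiers was -0.35 with quantile normalization, -0.089 with no filter, -0.30 with the 5 FPKM filter, -0.61 with a pseudocount of 0.1 and -0.55 to -0.35 when single libraries were left out. That of two-pore channels was 0.011 with no filter, where it covered 11 members instead of 2. Kcnk3 and Kcnk10 kept their changes of -0.56 and -0.20 in that fit. With a pseudocount of 0.1 the two-pore median was -0.57, from -0.91 for Kcnk3 and -0.22 for Kcnk10. What moved the inward rectifier median was not tested. No single member named changed direction past the threshold. Same-numbered libraries did not deviate together (correlations of -0.22, 0.16, 0.01 and 0.09 across tested genes), so no pairing by number was seen. This check cannot exclude pairing. With the replicate block 5 members were higher and 7 lower, and Kcnmb4 missed the threshold (limma, adjusted p = 0.0597). Members at a few fragments per library limit what could be seen.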
